A study of Homo sapiens with 4 samples.

Results

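The departure of each gene from additivity was described for K562/G01 cells in which knockdown of TCF7 and imatinib were combined. K562/G01 is an imatinib-resistant derivative of K562, an established chronic myeloid leukemia line that carries the BCR-ABL1 fusion kinase, the target of imatinib. The cells carried a lentiviral scramble hairpin or a lentiviral hairpin against TCF7, and each line was left without drug or given imatinib at 1 µM for 48 hours. This makes 4 groups (scramble, TCF7 knockdown, scramble with imatinib, and TCF7 knockdown with imatinib) with 1 bulk RNA library each. All 4 share the resistant parent line and a lentiviral vector, the knockdown rests on what the labels give as 1 targeting construct, and nothing in the labels tells whether these were clones or separate infections. Values in the 4 libraries are given below in that order.

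The departure of a gene is the log2 ratio of knockdown over scramble under imatinib minus the same ratio without imatinib, on CPM, each gene's count scaled to the size of its library. It is 0 where the knockdown ratio was the same with and without the drug, above 0 where the library with both treatments lay higher than the additive value, and below 0 where it lay lower. Genes with a mean CPM of 5 or more were described, 10105 of the 28482 genes in the table. With 1 library a group there is no replicate check and no test, so departures are given as sizes. The 95% interval beside a departure covers counting error only, and reads are not independent molecules. Each departure uses all 4 libraries, so that an odd level in any 1 of them moves it.

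TCF7 is a transcription factor of the TCF/LEF family, which binds DNA together with beta-catenin when Wnt signalling is active and with Groucho/TLE corepressors when it is not. Imatinib blocks the kinase activity of BCR-ABL1 and so, in sensitive cells, the STAT5, RAS/ERK and PI3K signals that keep them dividing. Whether these signals were blocked in the resistant cells used here was not measured. Several of the genes below belong to the NRF2 programme, in which the factor NFE2L2, held down by KEAP1, drives enzymes that detoxify quinones and peroxides, make glutathione and NADPH, and store iron. Others are metallothioneins, small cysteine-rich proteins that bind zinc and copper and are driven by the zinc sensor MTF1.

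Promoter windows of members from the metallothionein and NRF2 groups are printed because departures of both signs are described for these groups. The windows come from RefSeq on GRCh38.p14 and run from 250 bases before to 50 bases after the start given there. That start can differ from the gene coordinates printed further below, as it does for MT2A. The windows are written 5′ to 3′ on the plus strand, which is the strand of all 3 genes. Capitals in the first and second mark the core of the metal response element, searched as TGCACNC and TGCGCNC on both strands. Capitals in the third mark the core of the antioxidant response element that NRF2 binds, searched as TGACNNNGC on both strands.
MT2A, chr16:56608334-56608633: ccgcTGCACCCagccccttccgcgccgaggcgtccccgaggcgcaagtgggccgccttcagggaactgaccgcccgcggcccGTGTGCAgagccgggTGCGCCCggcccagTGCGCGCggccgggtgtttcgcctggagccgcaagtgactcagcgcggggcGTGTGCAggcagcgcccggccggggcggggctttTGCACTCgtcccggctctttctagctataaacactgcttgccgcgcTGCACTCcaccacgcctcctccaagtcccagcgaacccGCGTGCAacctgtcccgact
MT1X, chr16:56682220-56682519: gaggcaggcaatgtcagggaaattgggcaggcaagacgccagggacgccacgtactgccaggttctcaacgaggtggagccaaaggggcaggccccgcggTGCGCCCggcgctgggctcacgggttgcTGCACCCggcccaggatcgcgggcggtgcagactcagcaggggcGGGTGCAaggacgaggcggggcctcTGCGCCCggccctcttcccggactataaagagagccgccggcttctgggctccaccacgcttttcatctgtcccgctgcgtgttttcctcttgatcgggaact
TXNRD1, chr12:104215529-104215828: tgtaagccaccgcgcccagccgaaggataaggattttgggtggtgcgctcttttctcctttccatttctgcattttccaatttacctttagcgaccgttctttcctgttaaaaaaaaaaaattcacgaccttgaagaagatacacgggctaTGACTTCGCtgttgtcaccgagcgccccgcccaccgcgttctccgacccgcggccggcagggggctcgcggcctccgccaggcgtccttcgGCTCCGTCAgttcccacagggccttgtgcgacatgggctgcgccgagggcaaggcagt
The MT2A window held 8 matches to the metal response core and the MT1X window held 4. At least 1 match was present in 29.5% of all 34943 windows, and 47.0% of the 7582 described genes with a window had one. The printed TXNRD1 window held 2 matches to the antioxidant core, which was present in 13.3% of all windows. It also held 1 match to the metal response core, and the MT2A and MT1X windows each held 1 match to the antioxidant core. Capitals do not mark these matches to the other core. Another TXNRD1 window, chr12:104286782-104287081, held 1 match to the antioxidant core. Of the 15 NRF2 genes with a window, 5 held the antioxidant core in at least 1 of their windows, against 19.8% of the 7582 described genes with a window. A match describes letters in a window and is not a measured binding site. The windows of OSGIN1, NQO1, FTL, AKR1C1, AKR1C2 and AKR1C3 had none of these letters for the antioxidant core.

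The counts summed to between 30634832 and 34095585 per library, and mitochondrially encoded genes took between 6.76% and 8.28% of them, most in the knockdown with imatinib. TCF7 had 339, 78, 367 and 117 counts, so both knockdown libraries lay below both scramble libraries. Its knockdown log2 ratio was -1.97 without and -1.51 under imatinib, a departure of 0.46 (95% interval 0.00 to 0.92). TCF7 therefore stood higher in the knockdown with imatinib (3.70 CPM) than in the knockdown without it (2.56 CPM), and the part of this difference in the departures of other genes was not tested. Erythroid markers summed to between 1944 and 2232 CPM and all 4 measured megakaryocyte markers to at most 2.87 CPM. In bulk RNA, fewer cells of a type and less RNA per cell cannot be told apart.

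Departures were small for most genes. The median over the 10105 genes was 0.01 and 95% of them lay between -0.42 and 0.60. Above additivity by 1.5-fold or more (a departure of 0.58 on the log2 scale) were 273 genes, 2.7% of those described, and below it by as much were 82 genes, 0.811%. The counts of the lists below are to be set beside these shares. A 2-fold limit left 23 genes above and 8 below. All 273 and all 82 had a counting interval that excluded 0. The level limit for described genes already keeps counting error small beside a departure of 0.58. That outcome was therefore all but fixed beforehand and is no separate check on these genes. Genes past the limit were mostly of low level, with a median of 10.7 CPM above and 9.45 CPM below, against 41.1 CPM over all genes. From 50 CPM upwards, 18 of 4436 genes lay above and 2 below.

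**Figure D1:**
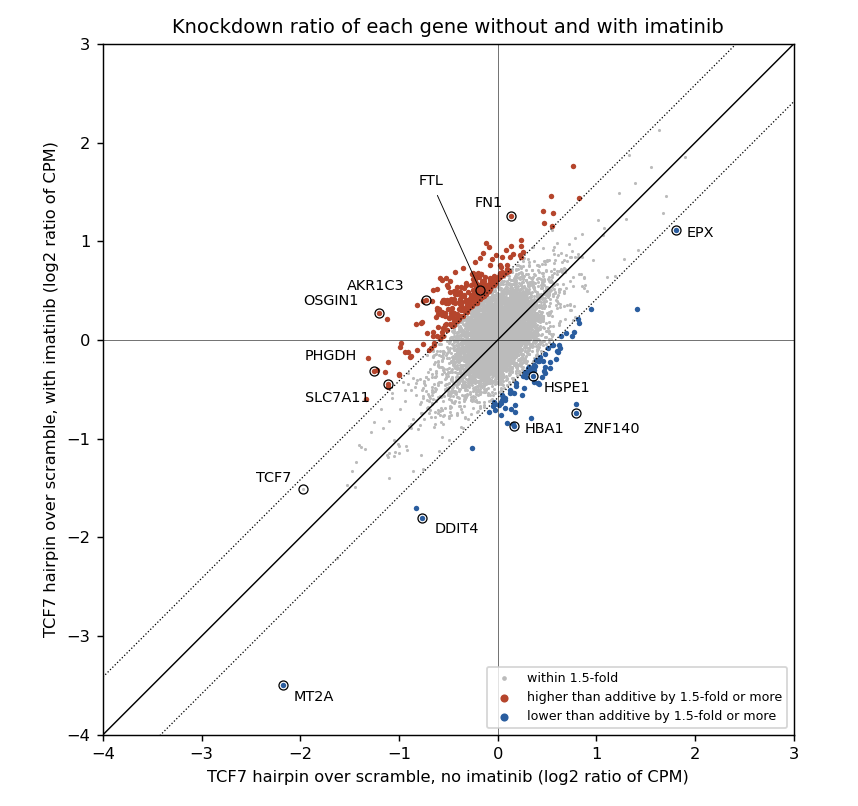
Knockdown ratio of each of the 10105 genes without imatinib (x axis) and with imatinib (y axis), both as log2 ratios of CPM. The solid line marks additivity and the dotted lines 1.5-fold on either side; 273 genes lie above the upper line, 82 below the lower, MT2A and DDIT4 lie low on both axes and EPX lies high on both.

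The genes above additivity took several shapes. In 121 of the 273, the counting interval of the knockdown ratio lay below 0 without imatinib and above 0 under it. A further 91 had a ratio whose interval held 0 without imatinib and lay above 0 under it, and 42 were lower in the knockdown without the drug with an interval that held 0 under it. Below additivity, 29 of the 82 genes were lower in the knockdown under imatinib with an interval that held 0 without it, 24 were higher without and held 0 under it, and 22 were higher without and lower under it. The library farthest from the median of the other 3 was the knockdown with imatinib, in which it stood higher, for 152 of the genes above, and the knockdown alone, in which it stood lower, for 95. Over all 10105 genes the knockdown with imatinib was farthest for 43.7% and the knockdown alone for 28.1%.

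Departures went with the GC content of the transcript. Spearman's rho across the 10095 genes with a GC value was 0.46, given as a description, because genes share their libraries and are not replicates. When genes were put into 10 equal bins by GC content, the lowest bin had a median departure of -0.10 and the highest 0.24. The imatinib ratio ran with GC in both lines, from -0.13 to 0.35 in scramble cells and from -0.24 to 0.61 in knockdown cells, with the wider range in the latter. Genes above the limit had a median GC content of 58.8%, those below 44.7% and all genes 47.0%. After a smooth fit of the departure on GC and length had been subtracted (below, trend removed), 171 genes lay above and 71 below, of which 146 and 54 were also past the limit before. Group medians and counts are therefore given with the trend removed as well; the part of GC content in any single departure was not tested.

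**Figure D2:**
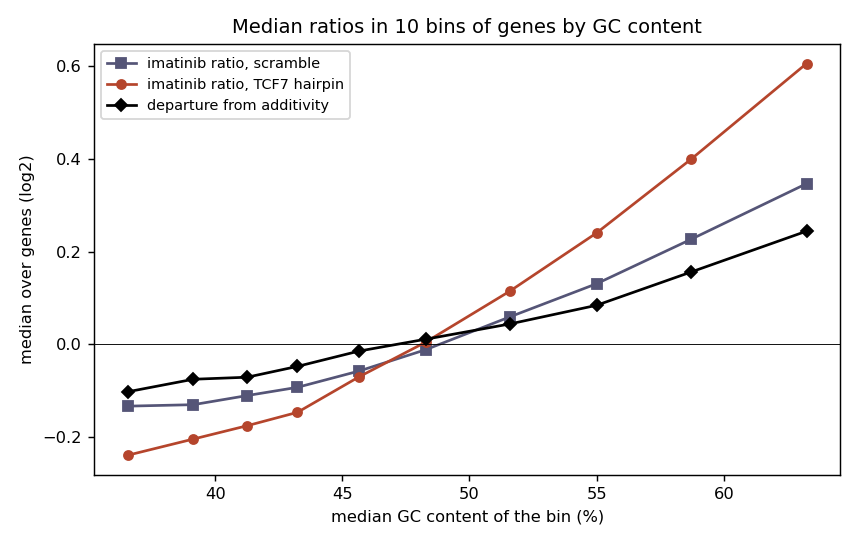
Median log2 ratio over genes (y axis) in 10 equal bins of the described genes ordered by GC content (x axis, median GC content of the bin in %). Squares show imatinib over none in scramble cells, circles the same in knockdown cells and diamonds the departure, which runs from -0.10 to 0.24.

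Genes of the NRF2 programme lay above additivity. Of 21 described, 5 were past 1.5-fold above (4 with the trend removed) and 0 below, against 2.7% and 0.811% over all genes. In the list 19 had a departure above 0, and the median was 0.28 (0.27 with the trend removed) against 0.01 over all genes. The median knockdown ratio of the list was -0.33 without imatinib and 0.01 under it. OSGIN1 (chr16:83948282-83966332 on GRCh38), an oxidative stress-induced growth inhibitor, had 18.0, 7.75, 21.7 and 26.3 CPM. It was lowest in the knockdown without drug and highest in the knockdown with imatinib, a departure of 1.48 (1.22 to 1.74) and 2.80-fold above the additive value. NQO1, a quinone reductase, had 153, 113, 152 and 183 CPM, a departure of 0.71 (0.63 to 0.80). In both genes the knockdown libraries lay on either side of the pair of scramble libraries.

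The iron store and cystine-supplying genes of the list showed other levels in the single treatments. FTL, the ferritin light chain and the most abundant gene past the limit, had 1912, 1690, 2480 and 3519 CPM, a departure of 0.68 (0.66 to 0.70). FTH1, the ferritin heavy chain, had 2176 CPM in scramble cells and 2247 CPM with both treatments and departed by 0.40. SLC7A11, the cystine transporter that feeds glutathione synthesis, had 109, 50.3, 95.8 and 70.5 CPM. It stayed below scramble in both knockdown libraries, by -1.11 without and -0.44 under imatinib, which gives a departure of 0.67 (0.55 to 0.79).

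Other members lay above 0 but within 1.5-fold. SQSTM1, an autophagy adaptor that binds KEAP1, departed by 0.50, KEAP1 itself by 0.43, and TXNRD1, thioredoxin reductase, with a promoter window printed above, by 0.30. GSR, PGD and TKT departed by 0.28, 0.27 and 0.27. GCLM, a glutathione synthesis subunit, departed by 0.15 and stayed lower in both knockdown libraries. The 2 members below 0 were NFE2L2, the gene of NRF2, and PRDX1, a peroxiredoxin, both at -0.13. HMOX1, heme oxygenase 1, had 0, 0, 0 and 2 counts and could not be described.

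The 3 aldo-keto reductases AKR1C1, AKR1C2 and AKR1C3, which reduce steroids and reactive carbonyls and are known NRF2 targets, were not in that list and were named for their size. AKR1C1 had 320, 209, 312 and 392 CPM and a departure of 0.94 (0.88 to 1.00). AKR1C2 had 78.3, 57.9, 70.0 and 113 CPM and departed by 1.12, and AKR1C3 had 36.5, 22.1, 32.8 and 43.3 CPM and departed by 1.13. All 3 were lowest in the knockdown alone and highest with both treatments. These genes are near-identical neighbours on chromosome 10 and reads may be split among them, so their sum is given too: 435, 289, 415 and 548 CPM, a departure of 0.99 (0.94 to 1.04). Their GC content is low, and with the trend removed AKR1C1 departed by 1.01, AKR1C2 by 1.22 and AKR1C3 by 1.23.

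**Figure D3:**
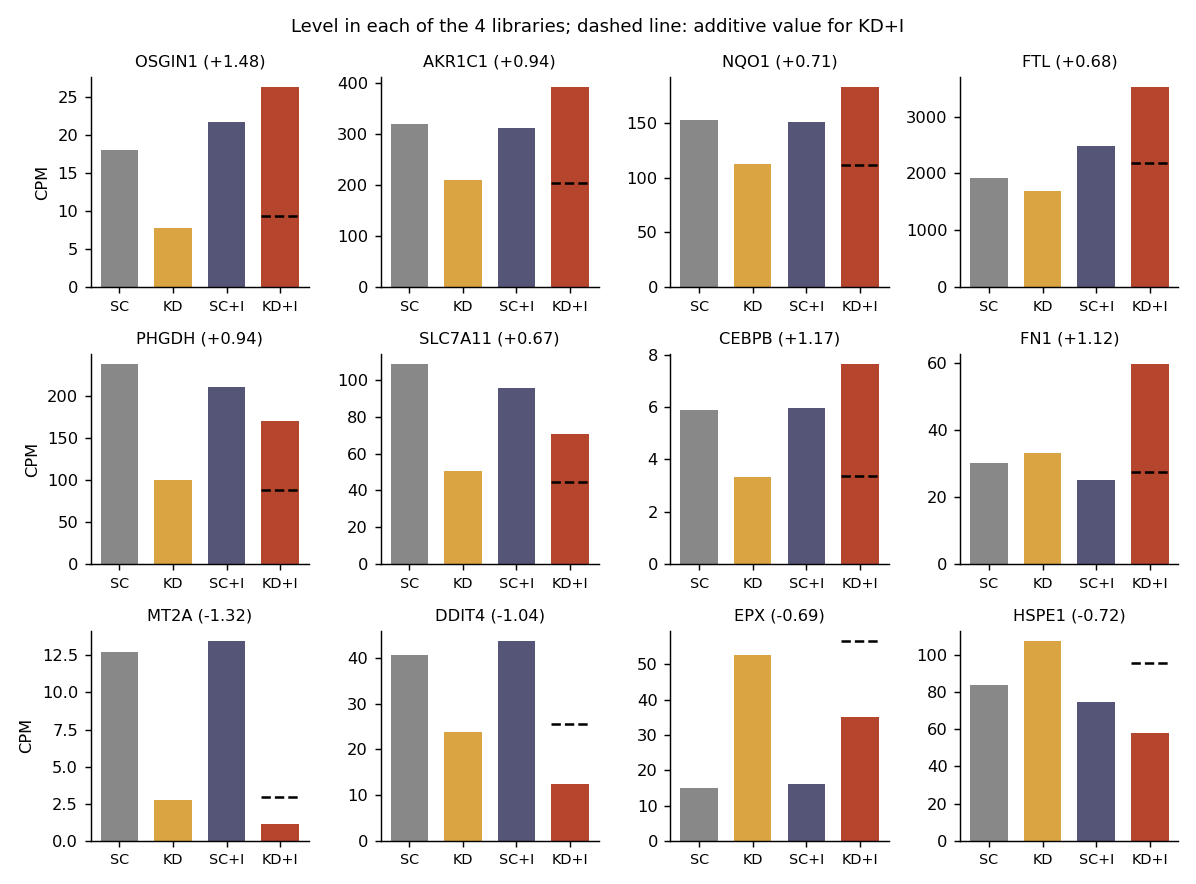
Level of 12 genes in CPM (y axis, from 0) in the 4 libraries: scramble (SC), TCF7 knockdown (KD), scramble with imatinib (SC+I) and knockdown with imatinib (KD+I), 1 library per bar and no error bar. The dashed line is the additive value for KD+I (SC+I times KD over SC) and the number in each title is the departure in log2; the 8 genes from OSGIN1 to FN1 stand above the line and MT2A, DDIT4, EPX and HSPE1 below it.

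MT2A and the metallothioneins MT1G and MT1X were lowest with both treatments, and MT1F and MT1E were at or near 0 in both knockdown libraries. MT2A (chr16:56608199-56609497) had 12.7, 2.76, 13.5 and 1.14 CPM. Both scramble libraries were alike and both knockdown libraries far lower, with a knockdown ratio of -2.18 without and -3.50 under imatinib and a departure of -1.32 (-1.90 to -0.73). The other metallothioneins lay under 5 CPM and are given as counts, with the counting interval of the departure only where it held 0. MT1G had 97, 16, 112 and 0 counts, which is 5.57-fold lower in the knockdown without imatinib and at least 34.3-fold lower under it, with 3 counts taken as the limit that a library at 0 allows. MT1X had 71, 22, 51 and 6 counts, MT1F had 28, 1, 36 and 0, and MT1E had 17, 1, 7 and 0. MT1H had 4, 8, 1 and 0 counts, so it was higher in the knockdown alone than in scramble cells. MT1A and MT3 had at most 1 count in any library and are given without an interval. MT1F and MT1E were at 1 count in the knockdown alone, so a further fall under imatinib cannot be read. The intervals of MT1X (-2.39 to 0.14), MT1F (-3.58 to 1.77), MT1E (-2.32 to 3.33) and MT1H (-4.35 to 1.58) held 0. The departure of MT1E was itself above 0, at 0.50. MTF1 and SLC30A1, a zinc exporter that MTF1 also drives, departed by -0.05 and -0.14, so of the 3 described members of the metallothionein and zinc list 1 was past the limit.

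Hypoxia-response genes outside glycolysis had a median departure of -0.10 (-0.02 with the trend removed). Of 25 genes, 0 lay above and 1 below the limit (2 below with the trend removed, as VEGFA reached -0.63). The shares over all genes were 2.7% above and 0.811% below. The hypoxia-response gene below was DDIT4 (chr10:72273920-72276036), an inhibitor of mTORC1 that hypoxia and stress induce. It had 40.7, 23.8, 43.8 and 12.5 CPM, a departure of -1.04 (-1.25 to -0.83), and was lowest with both treatments. VEGFA, the endothelial growth factor, had 73.8, 43.6, 68.5 and 27.7 CPM and departed by -0.55, and P4HA1, a collagen prolyl hydroxylase, by -0.53. P4HA2, of the same enzyme family, departed in the other direction, by 0.58. NDRG1, lower in the knockdown by -1.35 without and -1.10 under imatinib, departed by 0.25. The list thus held members on both sides, and its large knockdown ratios did not all carry a large departure. Glycolysis genes had a median of -0.09 (-0.10 with the trend removed), with 0 of 23 past the limit in either direction.

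The markers of mast cells, basophils and eosinophils had a median departure of -0.44 (-0.32 with the trend removed). Of 7 described, 0 were above the limit and 2 below it, against 0.811% below over all genes, and with the trend removed 1 of the 7 was below. EPX (chr17:58192737-58205174), eosinophil peroxidase, had 15.03, 52.6, 16.2 and 35.1 CPM. It was higher in both knockdown libraries than in both scramble libraries, by 1.80 without and 1.11 under imatinib, and so departed by -0.69 (-0.90 to -0.48). CLC, the eosinophil and basophil galectin, had 13.3, 23.6, 16.8 and 18.97 CPM and departed by -0.65, or -0.57 with the trend removed, which is within the limit. KIT, the stem cell factor receptor and itself an imatinib target, had 8.57, 8.80, 4.53 and 3.32 CPM. It was lower with imatinib in both lines and departed by -0.48 (-0.91 to -0.05). IL1RL1, the IL-33 receptor, was higher in the knockdown by 1.30 without and 1.23 under imatinib and departed by -0.07, whereas GATA2, a factor of early blood cells, departed by 0.38. CPA3, a mast cell protease, had 0 counts in 3 libraries and 4 in the knockdown with imatinib.

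Globins had a median departure of -0.14 (-0.20 with the trend removed). Of 7 globins, 1 was below the limit (2 with the trend removed, as HBZ reached -0.66), against 0.811% of all genes. HBA1, an alpha globin, had 14.2, 15.9, 20.5 and 11.2 CPM and departed by -1.04, while its near-identical copy HBA2 had 9.72, 12.3, 19.4 and 23.2 CPM and departed by -0.08. Reads may be split between the copies, and their sum departed by -0.45 (-0.63 to -0.27). HBZ, the embryonic alpha-type chain, departed by -0.43 and HBG1 and HBG2, the fetal chains, together by -0.16. HBE1, the embryonic beta-type chain and the most abundant globin, had 1182, 910, 1261 and 1281 CPM and departed the other way, by 0.40. ALAS2, the first enzyme of erythroid heme synthesis, departed by -0.44.

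The TCF/LEF family and its partners had a median departure of 0.24 (0.20 with the trend removed). Of 12 genes, TCF7 itself included, 1 was above the limit and 0 below, against 2.7% and 0.811% over all genes. The gene above was CTNNBIP1, an inhibitor of the binding of beta-catenin to TCF factors, with 7.55, 6.799, 9.41 and 12.9 CPM and a departure of 0.60 (0.26 to 0.94). With the trend removed it departed by 0.49, and 0 of the 12 were past the limit. LEF1, the close relative of TCF7, had 20.3, 22.0, 23.5 and 17.4 CPM. It was highest in scramble cells with imatinib and lowest with both treatments, a departure of -0.54 (-0.76 to -0.32). TCF7L2 departed by 0.25, the coactivator BCL9L by 0.48, the corepressors TLE3 and TLE4 by 0.22 and 0.20, and CTNNB1, the gene of beta-catenin, by -0.11. Of the 9 described Wnt target genes 0 were past the limit, and their median was 0.03 (-0.01 with the trend removed). The transcripts of BCR and ABL1, whose reads include those of the fusion, departed by 0.21 and 0.13, or 0.04 and -0.04 with the trend removed.

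Lymphoid markers had a median departure of 0.44 (0.40 with the trend removed) over 6 genes, 0 of them past the limit (1 above, CYTIP at 0.62, with the trend removed), and 2 of the 6 are TCF7 and LEF1. SLAMF6, a receptor of T and NK cells, had 12.3, 38.3, 9.32 and 40.9 CPM and departed by 0.49. CYTIP, a cytohesin-binding protein, had 5.52, 14.0, 4.59 and 16.9 CPM and departed by 0.54. Both were higher in both knockdown libraries than in either scramble library. CD3D, a T-cell receptor chain, departed by 0.43. PTPRC, the pan-leukocyte CD45, had between 169 and 185 CPM in all 4 libraries and departed by -0.01. CD3E and CD79A had at most 2 counts in any library. Myeloid markers, 4 genes with 0 past the limit, had a median of 0.22, which was 0.04 with the trend removed. Among them SPI1 departed by 0.36 and CD33 by 0.28, while MPO, the defining granule enzyme, had at most 4 counts.

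**Figure D4:**
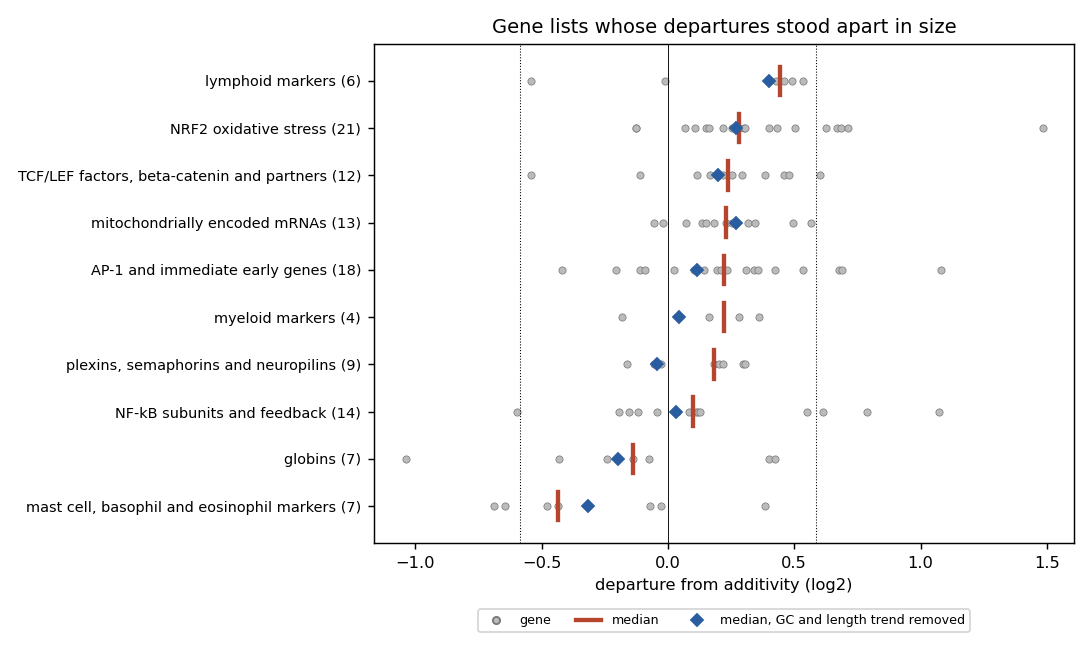
Departure from additivity in log2 (x axis) of every described gene (grey points) in the 10 gene lists that stood apart in size, with the list's median (bar) and its median after removal of the GC and length trend (diamond). The number of genes is in brackets and the dotted lines mark 1.5-fold; the medians of the mast cell, basophil and eosinophil list and of the globins lie left of 0, and that of the plexin list moves from 0.18 to -0.04 with the trend removed.

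Of 18 immediate early genes, 3 lay above the limit and 0 below, with the trend removed too, against 2.7% and 0.811% over all genes. The other 15 were within it, and the median was 0.22, which was 0.11 with the trend removed. ZFP36, which destabilises mRNAs with AU-rich elements, had 6.61, 5.16, 5.78 and 9.61 CPM and departed by 1.08 (0.69 to 1.47). BTG2, an antiproliferative p53 target, departed by 0.69 and IER5 by 0.68. JUND departed by 0.54, or 0.21 with the trend removed, and KLF10 by -0.42. Of 14 genes of NF-kB subunits and feedback, 3 lay above the limit and 1 below, with the trend removed too, beside the same shares over all genes. The median of the list was 0.10, or 0.03 with the trend removed. IKBKG, the regulatory kinase subunit, departed by 1.07, the inhibitor NFKBIE by 0.79 and the deubiquitinase TNFAIP3 by 0.62, while NFKB1, the p105/p50 subunit, departed by -0.60. Most genes above the limit here were of low level. Mean levels were 5.12 CPM for IKBKG, 5.81 for TNFAIP3, 6.79 for ZFP36, 11.0 for NFKBIE, 15.1 for BTG2 and 43.6 for IER5. Over all genes, 9.57% between 5 and 10 CPM lay above, 5.50% between 10 and 20 CPM and 1.53% between 20 and 50 CPM.

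Stress and amino acid lists held large departures beside medians near that of all genes. Among 21 regulators of the integrated stress response, 2 lay above and 1, DDIT4 (described above), below, against 2.7% and 0.811% over all genes. The median of this list was 0.10 (0.06 with the trend removed). CEBPB, a bZIP factor, had 5.89, 3.32, 5.98 and 7.65 CPM and departed by 1.17, DDIT3, the factor CHOP, departed by 0.60, and ATF4 by 0.13. Of 20 genes of serine, one-carbon and asparagine synthesis, 1 lay above, beside 2.7% over all genes. The median was -0.01, before and after removal of the trend. PHGDH, the first enzyme of serine synthesis, had 237, 99.3, 211 and 170 CPM, a departure of 0.94 (0.87 to 1.02). PSAT1, the next enzyme of the pathway, departed by -0.22, and ASNS, asparagine synthetase, whose knockdown ratio was -0.88 without and -0.89 under imatinib, by -0.01. Of 22 heat shock genes, with a median of -0.01 before and after removal of the trend, the 1 past the limit was HSPE1, the mitochondrial cochaperonin, with 83.8, 107, 74.4 and 57.9 CPM and a departure of -0.72 (-0.83 to -0.60).

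The 13 mitochondrially encoded mRNAs, all of the respiratory chain, had a median departure of 0.23 (0.27 with the trend removed), with 11 above 0 and 0 past the limit. With the trend removed 2 of the 13 were above the limit, MT-ATP8 at 0.72 and MT-ND6 at 0.60. MT-ATP8 had 270, 325, 460 and 820 CPM and departed by 0.57, and MT-ND6, the only one of the 13 on the light strand, departed by 0.50. MT-CO1, the most abundant, departed by -0.02 (0.03 with the trend removed), and MT-ND3 by -0.05 (0.08). Summed over the 13, the departure was 0.15. Of 75 nuclear-encoded subunits of the respiratory chain, 1 lay above and 1 below the limit, with a median of -0.06 (1, 0 and -0.08 with the trend removed). Plexins, semaphorins and neuropilins, 9 genes with 0 past the limit, had a median of 0.18, which turned to -0.04 with the trend removed.

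Among single genes at the ends of the range, FN1, fibronectin, had 30.3, 33.3, 25 and 59.8 CPM, with the library of both treatments apart from the other 3, and a departure of 1.12 (0.95 to 1.29). ZBTB47, a zinc finger factor, departed by 1.33, NINJ1, a mediator of membrane rupture, by 1.21, MUC4, a membrane mucin, by 1.13 and MRPL12, a mitochondrial ribosomal protein, by 1.10. At the other end ZNF140, a zinc finger gene, had 3.83, 6.70, 6.77 and 4.01 CPM and departed by -1.54 (-1.98 to -1.10). Either treatment alone stood higher than neither, and both together stood near the scramble level. FAM178B departed by -0.88 and ATP1B2, a subunit of the sodium pump, by -0.94. Several of the genes given here overlap other genes in the annotation. DHRSX, COG8, MT-ATP8 and BCR do so on the same strand. TCF7, DNAJC17, LAGE3, AKR1C2, IKBKG, TNFAIP3, DDIT3, SQSTM1, ALAS2, CTNNB1, BCL2L11, HSPE1, SLC48A1, ELP4, GANC and ZNF140 do so on the opposite strand. The strand setting of the counting is not given in the sources used here, so reads of the neighbour may be included in their values.

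At 50 CPM or more, where counting error is smallest, genes among the 18 above the limit were named after their values were seen. Besides NQO1, FTL, SLC7A11, PHGDH, AKR1C1 and AKR1C2 they included SLCO2B1, an organic anion transporter, with 63.4, 35.8, 67.0 and 75.2 CPM and a departure of 0.99. SLC7A8, a neutral amino acid transporter, departed by 0.64, SLC48A1, a heme transporter, by 0.63 and GPAT3, an acyltransferase of triglyceride synthesis, by 0.73. The 2 genes below at this level were HSPE1 and ELP4, an Elongator subunit, which departed by -0.60. With the trend removed 11 genes of this level lay above and 3 below.

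Of the 58 lists with 4 or more described genes, 49 had a median within 0.15 of that of all genes. Such a median can cover members on both sides, as in the NF-kB and integrated stress response lists, so counts are given too. The 33 genes of mitosis and G2/M had a median of -0.13 (-0.07 with the trend removed), the 38 of DNA replication and G1/S -0.03 (-0.02) and the 84 cytosolic ribosomal proteins -0.06 (-0.05), with 0 genes past the limit in all 3 lists. The 33 genes of cholesterol and fatty acid synthesis had a median of 0.01 (-0.08), with 1 below (0 with the trend removed). The 32 BCR-ABL1 signalling components had a median of -0.02 (-0.02), with 1 below. The 15 STAT5 targets had a median of 0.06 (0.01), with ID1 above the limit at 0.68, or within it at 0.56 with the trend removed. BCL2L11, the pro-apoptotic BIM, departed by 0.03 and BCL2L1, the anti-apoptotic BCL-XL, by 0.54.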

How the data were processed

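Libraries were stranded and made from ribosome-depleted RNA of 4 cultures, per the labels' protocols. Per the submitters' processing notes, HISAT2, HTSeq 0.6.1, FastQC and GRCh38 were used. The sources used here give neither an annotation release nor a strand setting for the counting. The authors deposited 1 table with a whole-number read count for each of 28482 genes and library, per the file headers. Its FPKM columns, also deposited by the authors, were treated as a score because 6 genes have negative values, and served only as an alternative. A further 4 columns of per-sample log2 values were not used.

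CPM were scaled with TMM (edgeR 4.0.16, R 4.3.3) computed on genes that reached 1 CPM in 2 libraries or more. Ratios used a prior count of 2. The 95% interval of a departure is 1.96 times the standard error from the 4 Poisson counts. Genes were matched to GENCODE 29 (28329 of 28482), and the smooth trend over GC and length (from each gene's longest transcript) was fitted with mgcv 1.9.3. The calculation was tested on simulated Poisson counts with known departures, drawn around additive means built from these counts. The simulation held no spread between cultures, so it checks the arithmetic and the counting interval only. Library totals lay between 30634832 and 34095585 counts.

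The members and the 59 gene lists were chosen with earlier results of these data known. A list was given in detail where 4 or more genes were described and its median lay 0.15 or more from that of all genes, or where 10% or more of its genes, at least 2, were past 1.5-fold in 1 direction; others were added where a named gene belonged to them. Named genes are protein-coding genes with the 15 largest departures on each side, before and after removal of the trend, up to 5 genes past the limit in each list or else up to 2 with the largest departure, and a short fixed set including TCF7, MT2A, KIT, DDIT4, VEGFA and LEF1; other list members are named to show the range. A few genes are not reported here. No comparison was tested, because each group has 1 library. Alternatives were DESeq2 1.42.0 size factors, total counts, a prior of 0.5 counts, deposited FPKM on a log2 scale after adding 0.1, thinned counts, removal of mitochondrial genes or of the trend, other level limits and a 2-fold limit.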

Additional observations from a re-analysis of the deposited data

Results flagged for a closer look

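Among the protein-coding genes with the 15 largest departures on each side, 15 had a knockdown ratio on opposite sides of 0 without and under imatinib. Both counting intervals excluded 0 in these genes. They were picked for large departures, which makes such a change of side more likely beforehand. Over all genes past the limit, the same pattern held for 121 of the 273 above (44.3%) and 22 of the 82 below (26.8%). The difference was not tested, since each group has 1 library. The knockdown was lower without and higher under imatinib for OSGIN1 (departure 1.48), NINJ1 (1.21), DNAJC17 (1.17), CEBPB (1.17), DHRSX (1.17), LAGE3 (1.15), COG8 (1.15), FBXL15 (1.13), AKR1C3 (1.13), AKR1C2 (1.12) and ZFP36 (1.08). It was higher without and lower under imatinib for ZNF140 (-1.54), GANC (-0.87), C17orf75 (-0.80) and AQP10 (-0.78). Of these, OSGIN1, AKR1C2 and AKR1C3 had a mean level above 15 CPM, and the others lay lower.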

How the results depend on the processing

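No paired analysis was possible because the labels carry no replicate numbers and each group has 1 library; for the same reason no library could be left out, since a departure needs all 4. The 273 genes above additivity became 171 with the GC and length trend removed, 909 with a level limit of 1 CPM, 60 with one of 20 CPM and 23 at 2-fold. The 82 below became 517 at 1 CPM, 10 at 20 CPM and 8 at 2-fold. The median of the mitochondrially encoded mRNAs was 0.21 with DESeq2 size factors and 0.27 with the trend removed, and that of the myeloid markers was 0.042 with the trend removed. The median of the plexins, semaphorins and neuropilins turned to -0.043 with the trend removed and to -0.049 at 1 CPM. The globin median of -0.14 only just reached the limit of 0.15 from that of all genes, and it was -0.11 at 1 CPM. Of the 147 genes that the naming rule takes, 44 moved by more than the half-width of their 95% counting interval in at least 1 of the 7 settings run for them, and 4 took the other sign, all with the trend removed and all with a departure of 0.125 or less in size; 0 of those past 1.5-fold took the other sign. Of the 64 past 1.5-fold, 56 stayed past it with the trend removed and between 61 and 64 in the other 6 settings. The naming rule takes large departures before and after removal of the trend, so these shares do not stand for all genes. Over all genes past the limit, 146 of the 273 above and 54 of the 82 below stayed past it with the trend removed.

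The share past the limit was higher at low level: 9.57% of genes between 5 and 10 CPM lay above the limit against 0.406% at 50 CPM or more, and the cause was not tested. The counting interval leaves out the spread between cultures, which 1 library a group cannot give.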

Other observations

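Genes under 5 CPM were outside the departures described. SRXN1, sulfiredoxin and another NRF2 gene, had 18 counts in both libraries without imatinib, 47 in scramble cells with imatinib and 89 with both treatments. NKG7, a granule protein of cytotoxic lymphocytes, had 10 counts in each library without imatinib, 30 in scramble cells with it and 69 with both treatments. ABCB1, the multidrug efflux pump, had, in the order of libraries used above, 11, 4, 13 and 0 counts, and CA9, a hypoxia-induced carbonic anhydrase, had 29, 2, 25 and 0. TCF7L1, a relative of TCF7, had 5, 0, 6 and 16 counts. The counting intervals of the departure of SRXN1 (-0.12 to 1.93), ABCB1 (-4.35 to 0.74) and CA9 (-3.35 to 1.76) held 0. That of TCF7L1 (0.49 to 5.62) did not. These genes were picked after their counts were seen.

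Chromosome medians of the departure ran from -0.06 on chromosome 13 to 0.15 on chromosome 19, and that of the mitochondrial genome was 0.23. The median GC content was 41.2% on chromosome 13 and 58.4% on chromosome 19, and with the GC and length trend removed their medians were 0.03 and 0.04, against 0.27 for the mitochondrial genome.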
